A study of Mus musculus with 11 samples.

Results

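Phosphoinositide-specific phospholipase C genes were followed in splenic classical dendritic cells (cDCs) of the mouse. The 10 genes were chosen by family membership from 19938 genes measured on the arrays, namely Plcb1, Plcb2, Plcb3, Plcb4, Plcg1, Plcg2, Plcd1, Plce1, Plcl1 and Plcl2. Where a gene has several probe sets that carry 1 gene symbol, the rule takes the brightest by its mean across the arrays. Each of the 10 genes had 1 such probe set, so measured values chose none of them. The family was nevertheless put forward with the differences of Plcb4 and Plce1 on these arrays already known, and the calls for those 2 genes add no independent evidence. Affymetrix gene arrays had been run on 3 samples of CD24+ cDCs and 4 samples of CD172a+ cDCs from control mice, and on 4 samples of CD172a+ cDCs from conditional knockout (CKO) mice. All mice were on a C57BL/6 background and carried Zeb2 fl/fl. Only the CKO mice carried CD11c-Cre(tg) as well, so deletion of Zeb2 was aimed at cells that express CD11c, and an effect of the transgene itself cannot be told apart from an effect of the deletion. The labels used here give no age or treatment and do not state whether each replicate is its own animal, so p-values reflect the spread among these arrays, part of which may be technical.

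Phospholipase C enzymes cut membrane phosphoinositides into inositol trisphosphate, which opens calcium stores, and diacylglycerol, which recruits protein kinase C and Ras activators. The beta enzymes are switched on by heterotrimeric G proteins downstream of chemokine and other G protein-coupled receptors, and the gamma enzymes by tyrosine kinases downstream of Fc, lectin and antigen receptors. The delta enzymes respond mainly to calcium and the epsilon enzyme to small GTPases such as Ras and Rap. Plcl1 and Plcl2 encode phospholipase C-like proteins that keep the domain layout but lack catalytic activity. Among blood cells, Plcb2 and Plcg2 are the well-known members of myeloid cells. Zeb2 encodes a zinc-finger repressor that binds E-box-type DNA sequences.

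Plcb4 and Plce1 were the genes whose levels separated the groups, and the sequences around their annotated starts are shown to set them beside that binding preference. The windows are from RefSeq on GRCm38.p6, run from 250 bases before to 50 bases after a start, and are written 5′ to 3′ on the gene's strand. Capitals mark a match to CACCTG on either strand, which reads CACCTG or CAGGTG, the same 6 bases read from either strand, with no other motif searched. The first Plcb4 window lies at chr2:135659297-135659596 on the plus strand, the second at chr2:135764588-135764887 on the plus strand, and the Plce1 window at chr19:38523947-38524246 on the plus strand.
Plcb4 window 1: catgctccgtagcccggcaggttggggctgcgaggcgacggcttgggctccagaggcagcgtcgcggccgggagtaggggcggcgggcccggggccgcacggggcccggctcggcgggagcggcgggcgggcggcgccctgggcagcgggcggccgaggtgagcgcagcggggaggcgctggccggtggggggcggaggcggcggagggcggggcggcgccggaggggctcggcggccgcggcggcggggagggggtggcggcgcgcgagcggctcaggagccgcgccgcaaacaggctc
Plcb4 window 2: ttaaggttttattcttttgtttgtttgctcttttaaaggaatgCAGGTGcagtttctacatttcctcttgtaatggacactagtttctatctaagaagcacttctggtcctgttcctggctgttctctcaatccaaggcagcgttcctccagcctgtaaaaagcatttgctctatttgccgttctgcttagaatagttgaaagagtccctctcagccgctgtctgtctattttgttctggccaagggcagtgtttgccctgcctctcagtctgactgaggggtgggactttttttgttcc
Plce1 window 1: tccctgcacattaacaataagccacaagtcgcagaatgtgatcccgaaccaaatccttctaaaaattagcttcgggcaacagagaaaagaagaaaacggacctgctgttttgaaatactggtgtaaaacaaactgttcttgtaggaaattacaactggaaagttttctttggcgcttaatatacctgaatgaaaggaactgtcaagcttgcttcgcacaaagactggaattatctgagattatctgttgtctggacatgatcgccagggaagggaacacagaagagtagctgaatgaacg

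The first Plcb4 window held no match and was 84.0% G and C, the second held 1 match at position -207 from the start, and the Plce1 window, at 41.0% G and C, held none. Of the 32851 windows in the table, 20.2% held a match. Windows were present for 9 of the 10 genes, and 5 of their 11 windows held a match, those being 1 each of Plcb3, Plcb4, Plcg1, Plcg2 and Plcl1. These 11 windows are too few for the count to be read as a result. They ran from 41.0% to 84.0% G and C, against a median of 52.7% over all windows, and windows of like content were not compared. A match is only a string of letters, and a window without one says nothing about binding by Zeb2.

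The array values are log2 expression levels, on which 1 unit is a doubling, and array medians over all genes with a symbol lay between 5.46 and 5.56 in the 11 arrays. cDC1 markers averaged 9.91 to 10.46 in the CD24+ arrays and 6.63 to 6.79 in the control CD172a+ arrays. cDC2 markers averaged 4.72 to 4.97 and 7.21 to 7.88. At an adjusted p under 0.05 in limma, 11 of 12 cDC1 markers were higher in CD24+ cDCs (3.25% of all genes). Of the cDC2 markers, 9 of 12 were lower there (3.16% of all genes). Batf3, Cd300a, Clec10a and Mgl2 did not pass, so most but not all listed markers followed the sorted subsets. Zeb2 itself read 8.23, 8.23, 8.26 and 8.61 in control CD172a+ cDCs, 8.52, 8.32, 9.07 and 9.24 in CKO CD172a+ cDCs, and 5.19, 5.08 and 5.52 in CD24+ cDCs. The probe set was thus not lower in the CKO arrays (log2 difference 0.45, adjusted p = 0.998 in limma). Whether it lies inside the deleted part is not given, so it is no check of the deletion, and every direction for the CKO group rests on its label. The arrays also fall into a first set (replicates 1 and 2 of the CD172a+ groups and replicate 1 of CD24+) and a second set (all others), found from the values and crossing the groups.

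Plcb4, a beta enzyme coupled to G proteins and best known from neurons, was lowest in control CD172a+ cDCs, intermediate in CD24+ cDCs and highest in CKO CD172a+ cDCs. The control CD172a+ arrays read 5.45, 5.34, 5.68 and 5.90, the CD24+ arrays 6.65, 7.0 and 6.87, and the CKO CD172a+ arrays 7.99, 7.85, 8.49 and 8.66. No array of a group reached the range of another, and within the groups the second array set read 0.29 to 0.65 above the first. Group means were 5.59 ± 0.25 (SD, n = 4), 6.84 ± 0.18 (SD, n = 3) and 8.25 ± 0.39 (SD, n = 4).

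Plce1, the enzyme that links small GTPases to phosphoinositide cleavage, was also lowest in control CD172a+ cDCs, but its highest level was in CD24+ cDCs. The control CD172a+ arrays read 4.79, 4.37, 4.83 and 4.89, the CKO CD172a+ arrays 5.74, 5.48, 5.79 and 6.06, and the CD24+ arrays 7.15, 6.91 and 6.86. The 3 groups were again fully separate. Means were 4.72 ± 0.24 (SD, n = 4), 5.77 ± 0.24 (SD, n = 4) and 6.97 ± 0.15 (SD, n = 3). The control CD172a+ mean lies under 5.53, the median level of all genes, where the normalization compresses differences, so folds against it are not exact ratios. For Plcb4 that group averaged 5.59, near the same median, with arrays at 5.34 and 5.45 under it, so its folds carry the same limit.

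**Figure D1:**
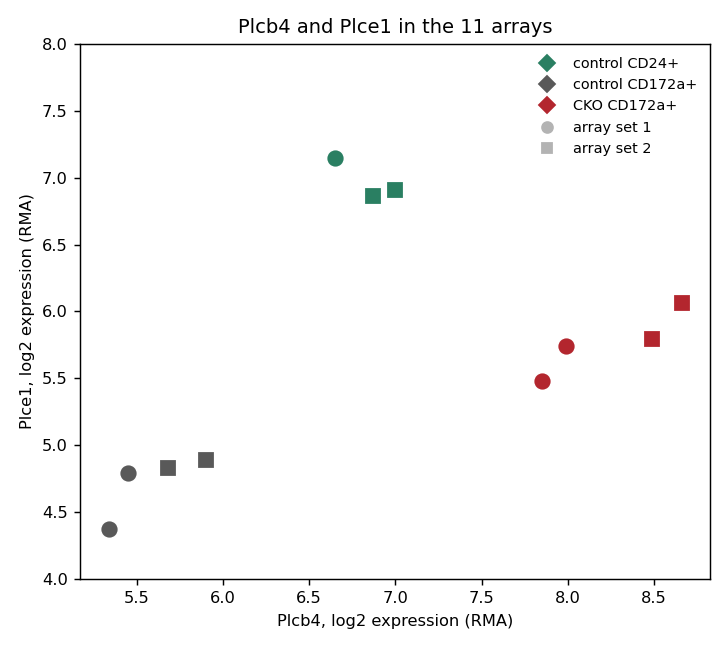
Level of Plcb4 (x axis) against level of Plce1 (y axis), both in log2 expression, in each of the 11 arrays; colour gives the group and shape the array set. The groups form 3 separate clouds: control CD172a+ arrays are low for both genes, CKO CD172a+ arrays are highest for Plcb4 (7.85 to 8.66), and control CD24+ arrays are highest for Plce1 (6.86 to 7.15).

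CKO and control CD172a+ cDCs differ by the Cre transgene and the labelled loss of Zeb2, and were compared first. Plcb4 rose by 2.65 on the log2 scale (SE 0.191, 95% interval 2.23 to 3.07), a 6.28-fold difference, with an adjusted p of 0.000197 in limma. Plce1 rose by 1.05 (SE 0.148, interval 0.72 to 1.37), or 2.07-fold, with an adjusted p of 0.0429. The other 8 genes did not pass. Of all genes, 0.0502% passed this comparison, 0.0401% passed as higher and 2.10% had groups that did not overlap, and because Plcb4 and Plce1 brought the family forward, nothing is read from 2 of 10. The median difference of the 10 genes was -0.05, against 0.01 over all genes.

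Plcb4 kept its size in each array set, 2.52 in the first and 2.78 in the second, and its call held when array set was a block (adjusted p = 9.49e-08) and in each of the 11 fits that left out 1 array, with differences from 2.51 to 2.78. It did not pass within the first set alone (adjusted p = 0.0515). The Plce1 difference was 1.03 and 1.06 in the sets and 0.93 to 1.14 when 1 array was left out. Its call was lost in 10 of those 11 fits, passing only without CKO replicate 2 (adjusted p = 0.0473, against 0.0668 to 0.174 without CKO replicate 1, 3 or 4, any of the 4 control CD172a+ arrays or any of the 3 CD24+ arrays). With array set as a block it passed (0.00743).

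Among the other beta genes, Plcb1 read 4.33 to 4.54 in the CKO arrays and 4.01 to 4.38 in control CD172a+ arrays, a difference of 0.26 (interval 0.03 to 0.49, adjusted p = 0.998), at levels far under the median gene. Plcb2, the main beta enzyme of blood cells, read 7.76 to 8.34 against 7.85 to 8.37 and differed by -0.02 (interval -0.54 to 0.50). Plcb3, a widely expressed beta enzyme, differed by 0.10 (interval -0.25 to 0.44). None of these 3 genes passed, and each had CKO and control arrays that overlapped.

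The gamma genes, which act below tyrosine kinases, differed by -0.10 for Plcg1 (interval -0.36 to 0.16) and -0.20 for Plcg2 (interval -0.62 to 0.23). Plcd1, the calcium-responsive delta enzyme, had the smallest spread of the family, between 5.14 and 5.38 over all 11 arrays, and differed by -0.07 (interval -0.24 to 0.10). Of the catalytically inactive relatives, Plcl1 differed by -0.55 (interval -1.18 to 0.08) and Plcl2 by -0.14 (interval -0.49 to 0.21). Each of these 5 genes had an adjusted p of 0.998 in limma, and their groups overlapped. The intervals, of which that of Plcl1 is the widest, limit what 4 arrays a group could show, and they do not show that these genes were equal.

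**Figure D2:**
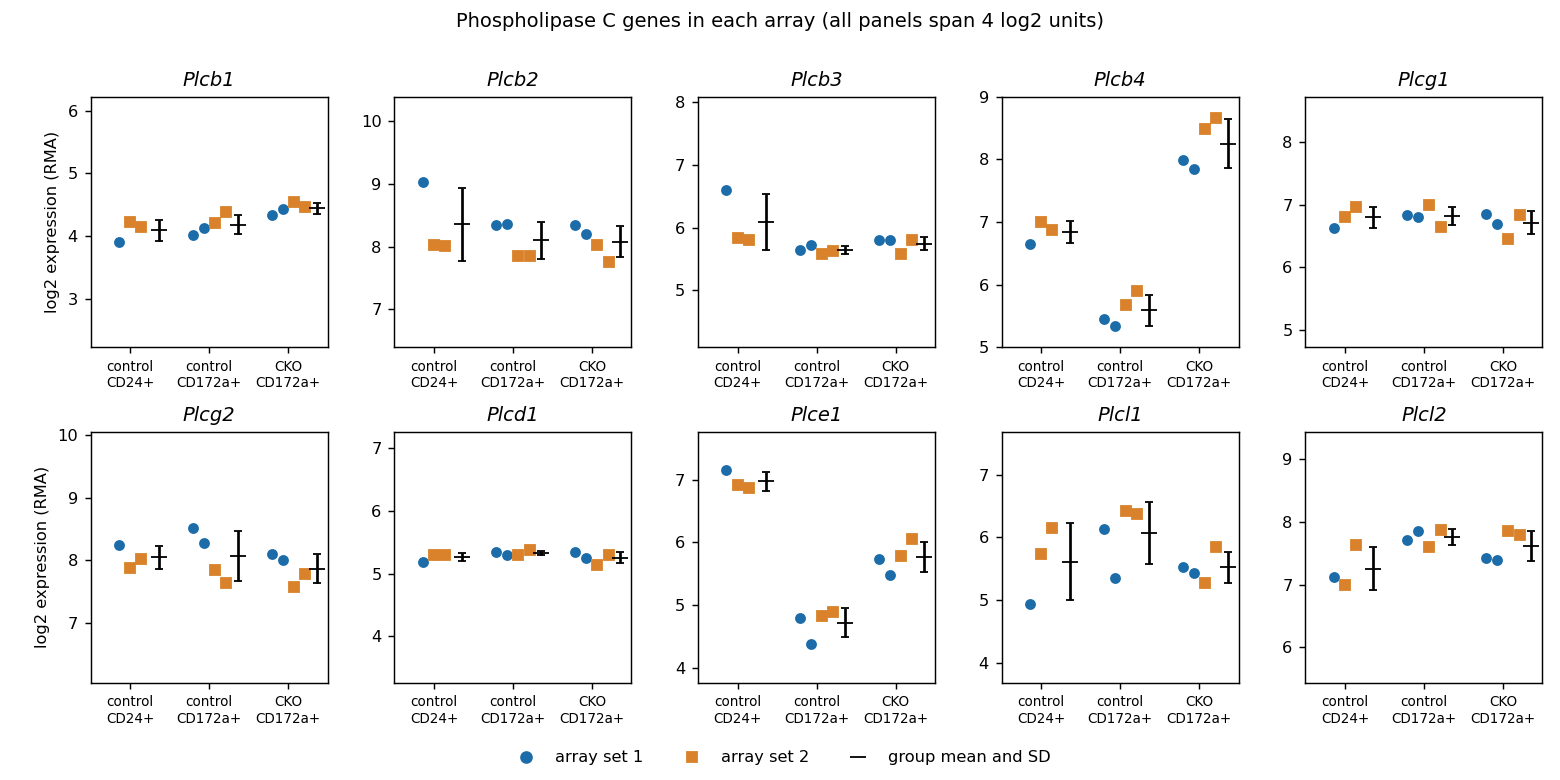
Log2 expression (y axis) of the 10 phospholipase C genes in each array, by group (x axis); circles are arrays of the first set and squares of the second, and black bars give the group mean and SD. Each panel spans the same number of log2 units. Plcb4 and Plce1 show 3 separate groups, Plcb2 is higher in the first array set than in the second in every group, and Plcd1 lies between 5.14 and 5.38.

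Without Cre, the subsets themselves could be set against each other, CD24+ against CD172a+. Plce1 was 4.76-fold higher in CD24+ cDCs (log2 2.25, SE 0.159, interval 1.90 to 2.60, adjusted p = 6.42e-06 in limma) and Plcb4 was 2.37-fold higher (log2 1.25, SE 0.206, interval 0.79 to 1.70, adjusted p = 0.00336). These were 2 of the 10 genes, where 6.41% of all genes passed, 3.25% as higher and 3.16% as lower. Within the array sets the differences were 2.57 and 2.02 for Plce1 and 1.25 and 1.15 for Plcb4. The median over the 10 genes was -0.02, the same as over all genes.

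Plcb3 read 6.60, 5.84 and 5.81 in the CD24+ arrays and 5.58 to 5.72 in control CD172a+ arrays, without overlap, which held for 14.6% of all genes. Its difference of 0.44 did not pass (adjusted p = 0.198), but did when array set was a block (0.49, adjusted p = 0.0288). It was 0.19 without CD24+ replicate 1, and 0.91 in the first set (adjusted p = 0.0142), whose only CD24+ array is the high one, against 0.23 in the second (adjusted p = 0.34). Plcl2, one of the inactive relatives, read 7.12, 7.0 and 7.64 in CD24+ and 7.72, 7.86, 7.60 and 7.87 in control CD172a+ cDCs. Its difference of -0.51 (adjusted p = 0.132) passed when array set was a block (-0.54, adjusted p = 0.0328), within the first set, which has 1 CD24+ array (-0.67, adjusted p = 0.0418), and without CD24+ replicate 3 (-0.70, adjusted p = 0.0318), and 1 CD24+ array reached into the control CD172a+ range.

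The remaining 6 genes did not pass over all arrays, and their groups overlapped. Plcb2 differed by 0.25 (interval -0.31 to 0.81), passed within the first set, where 1 CD24+ array stands against 2 (0.67, adjusted p = 0.0403), and differed by -0.09 without CD24+ replicate 1. Plcg1 differed by -0.02 (interval -0.30 to 0.26), Plcg2 by -0.02 (-0.48 to 0.44), Plcb1 by -0.10 (-0.35 to 0.15), Plcd1 by -0.07 (-0.25 to 0.11) and Plcl1 by -0.46 (-1.14 to 0.22). The 2 enzymes best known from myeloid cells, Plcb2 and Plcg2, were thus among those with no call, at group means of 8.10 to 8.35 and 8.04 to 8.06 in control cells.

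CKO CD172a+ cDCs were then set against control CD24+ cDCs, which orders the 3 groups and shares its arrays with the comparisons above. Plcb4 was 2.65-fold higher in CKO CD172a+ cDCs (log2 1.40, SE 0.206, adjusted p = 0.00142 in limma), above even the CD24+ level. Plce1 was 2.30-fold lower (log2 -1.20, SE 0.159, adjusted p = 0.000679), lying between the control subsets. Of all genes 7.17% passed here, 3.25% as higher and 3.92% as lower. The signs for these genes held within each array set, at 1.27 and 1.63 for Plcb4 and -1.53 and -0.96 for Plce1. Plcb1 differed by 0.36 without overlap of the groups, which held for 17.9% of all genes, and, of the fits run, passed only where array set was a block (0.39, adjusted p = 0.00866, against 0.0971 over all arrays). Plcb3 differed by -0.34, also without overlap, and did not pass (adjusted p = 0.328). Without CD24+ replicate 1 it was -0.09, and within the first set, where that is the only CD24+ array, -0.80 (adjusted p = 0.0196). Plcb2 differed by -0.27 over all arrays, by 0.07 without CD24+ replicate 1 and by -0.75 within the first set (adjusted p = 0.0273). The other 5 genes did not pass, with differences from -0.18 (Plcg2) to 0.36 (Plcl2).

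**Figure D3:**
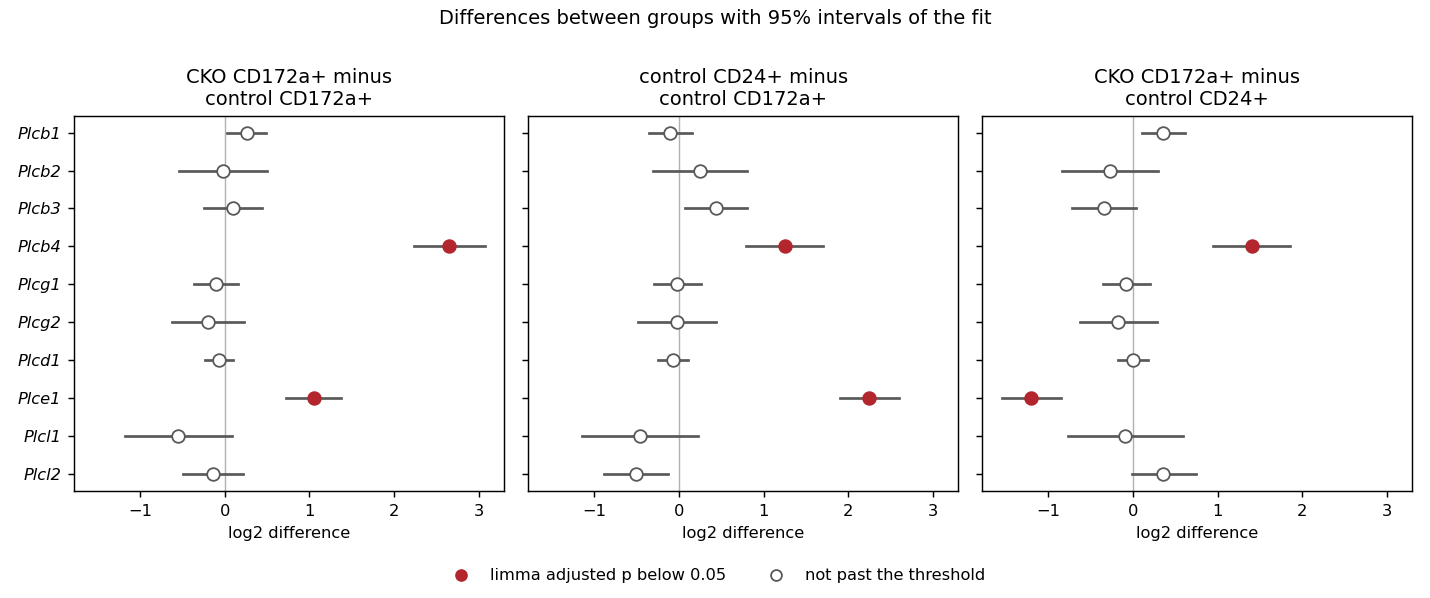
Log2 difference (x axis) of each phospholipase C gene (y axis) in the 3 comparisons, with bars for 95% intervals of the limma fit; filled points passed an adjusted p of 0.05. Plcb4 and Plce1 are the filled points in each panel, and Plce1 changes side in the third, at -1.20.

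Levels of some members also differed between the array sets, which were themselves derived from the values of all genes. Plcb2 read 8.21 to 9.03 in the 5 arrays of the first set and 7.76 to 8.03 in the 6 of the second, with no overlap, which held for 10.9% of all genes and for no other member. Plcg2 was 0.29 to 0.65 lower in the second set in each group. Plcl1 was 0.08 to 1.01 higher there, and its group SDs were 0.62 in CD24+, 0.50 in control CD172a+ and 0.24 in CKO CD172a+ cDCs. What separates the array sets is not given in the labels, and its part in these levels was not tested.

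Markers of other cell types were measured on the same arrays, where 0.0502% of all genes passed in CKO against control CD172a+ cDCs and 3.88% had an unadjusted p under 0.05. The lists were chosen with earlier results of these data known. Calls in a list, and averages that hold a called gene, therefore add no independent evidence. The B cell list averaged 5.76 to 6.11 in CKO and 5.39 to 5.73 in control CD172a+ arrays without overlap. Of its 13 measured markers 1 passed, Fcer2a (2.05, adjusted p = 4.74e-05), 8 had positive differences and 4 an unadjusted p under 0.05. Ms4a1 differed by 2.02 (adjusted p = 0.135, and 0.00201 when array set was a block), Blk by 0.46 and Fcrla by 0.41, while Cd79a (0.07), Pax5 (-0.03), Ebf1 (-0.03) and Cd22 (-0.35) were near 0 or lower. The median difference of the B cell list was 0.13, so the shift of its average rests largely on Fcer2a and Ms4a1. The monocyte list averaged 7.46 to 7.85 against 8.07 to 8.39, again without overlap. Of its 12 markers 1 passed as lower, Lyz2 (-1.66), and 5 had an unadjusted p under 0.05. Csf1r differed by -0.94 (adjusted p = 0.129, and 0.0304 when array set was a block), Ccr2 by -1.23, Adgre4 by -1.20 and Cx3cr1 by -0.79. Fcgr1 (0.07), F13a1 (0.04), S100a4 (-0.02), Nr4a1 (-0.04) and Ms4a6c (-0.06) lay near 0, and 2 of the 12 differences were positive. The plasmacytoid DC list averaged 6.34 to 6.64 against 6.10 to 6.53, with 1 of 12 passing as higher, Cox6a2 (2.09), and 4 at an unadjusted p under 0.05. Differences went both ways, with 6 of 12 positive and a median of 0.03. Siglech (0.43) and Ly6d (0.37) had positive differences, and Cd209d (-0.61) and Tcf4 (-0.27) negative ones. Each of these had an adjusted p of 0.998 in limma. In the other 8 marker lists 0 of 83 genes passed in limma, and 5 had an unadjusted p under 0.05. The part of other cells in the levels of Plcb4 and Plce1 was not tested, and in bulk samples fewer cells of a type and less RNA per cell cannot be told apart.

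The rest of the family was measured too. The genes Plcd3, Plcd4, Plch1, Plch2, Plcz1, Plcxd1, Plcxd2 and Plcxd3, which encode further delta, eta, zeta and X-domain enzymes, had 0 of 8 past the threshold in each of the 3 limma comparisons. At an unadjusted p under 0.05 there were 0, 1 and 1 of them, where 3.88%, 15.9% and 18.0% of all genes stood. Their CKO differences ran from -0.15 for Plcxd1 to 0.17 for Plcxd3.

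The genes that feed, supply and read out phospholipase C were taken as 7 further lists, which with the 8 enzymes above hold 166 genes, 152 of them measured. In CKO against control CD172a+ cDCs, 0 of 152 passed in limma, against 0.0502% of all genes, with 5 at an unadjusted p under 0.05 (3.88% of all genes) and 0 called when array set was a block. The differences ran from -0.52 (Rasgrp1) to 0.43 (Rasgrp3), with a median of -0.03. In control CD24+ against control CD172a+ cDCs, 10 were higher and 19 lower, or 19.1% against 6.41% of all genes, with a median of -0.04 against -0.02. In CKO CD172a+ against control CD24+ cDCs, 17 were higher and 9 lower, or 17.1% against 7.17%. When array set was a block, 52 and 54 of the 152 passed in these last comparisons, as did 3080 and 3641 of all genes. The lists were picked by hand, and the share over all genes includes weakly expressed ones. In fits kept to genes above the median level, 1266 and 1388 passed, against 1278 and 1429 over all genes. Those fits estimate the spread and adjust p over fewer genes, so their calls need not be the same genes. The share called was higher in those fits, and the lists were not compared with genes of like level.

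The counts for single lists that follow are small and stand against 3.25% of all genes called higher and 3.16% called lower in CD24+ cDCs. A count of 0 or 1 in a list is within 1 gene of that share. A count of 2 lies above it, but on too few genes to be read as a result. Among the G protein inputs of the beta enzymes, 2 of 23 were higher and 1 lower in CD24+ than in control CD172a+ cDCs. The G protein subunit genes Gng12 (1.96) and Gnb4 (1.81) were higher, and Rgs1, which turns G protein signals off, was lower (-0.44). Their CKO differences were 0.27, -0.02 and 0.06.

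Among the tyrosine kinase inputs of the gamma enzymes, 2 of 23 were higher and 7 lower in CD24+ cDCs. The adaptor gene Clnk was higher (3.14), while the kinase gene Syk (-1.68) and the Fc receptor signalling chain Fcer1g (-2.64) were lower. Of the small GTPases and their regulators that act on the epsilon enzyme, 0 of 15 were higher and 2 lower, namely Rhob (-1.85) and Rras2 (-1.56). CKO differences of these 5 genes ran from -0.24 (Syk) to 0.27 (Clnk).

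The genes that supply the substrate, which encode lipid kinases, synthases and transfer proteins, had 1 of 17 higher, the kinase gene Pi4k2a (2.41), and 1 lower, the kinase gene Pip4k2a (-0.76). The kinase and phosphatase genes of inositol phosphate turnover had 1 of 18 higher, the phosphatase gene Inpp1 (1.17), and 1 lower, the phosphatase gene Inpp4b (-1.01). Downstream, 3 of 25 calcium genes were higher and 3 lower, including the kinase gene Camk1d (1.47), the calcium pump gene Atp2a2 (0.61) and the inositol trisphosphate receptor gene Itpr3 (-0.81). In the diacylglycerol branch 1 of 23 was higher and 4 lower, including Prkcb (-1.28), Dgkd (-1.45), which removes diacylglycerol, and Rasgrp2 (-0.94), a Rap activator. Each gene named in these 3 paragraphs also passed in CKO CD172a+ against control CD24+ cDCs, with the opposite sign, in a comparison that shares the CD24+ arrays.

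**Figure D4:**
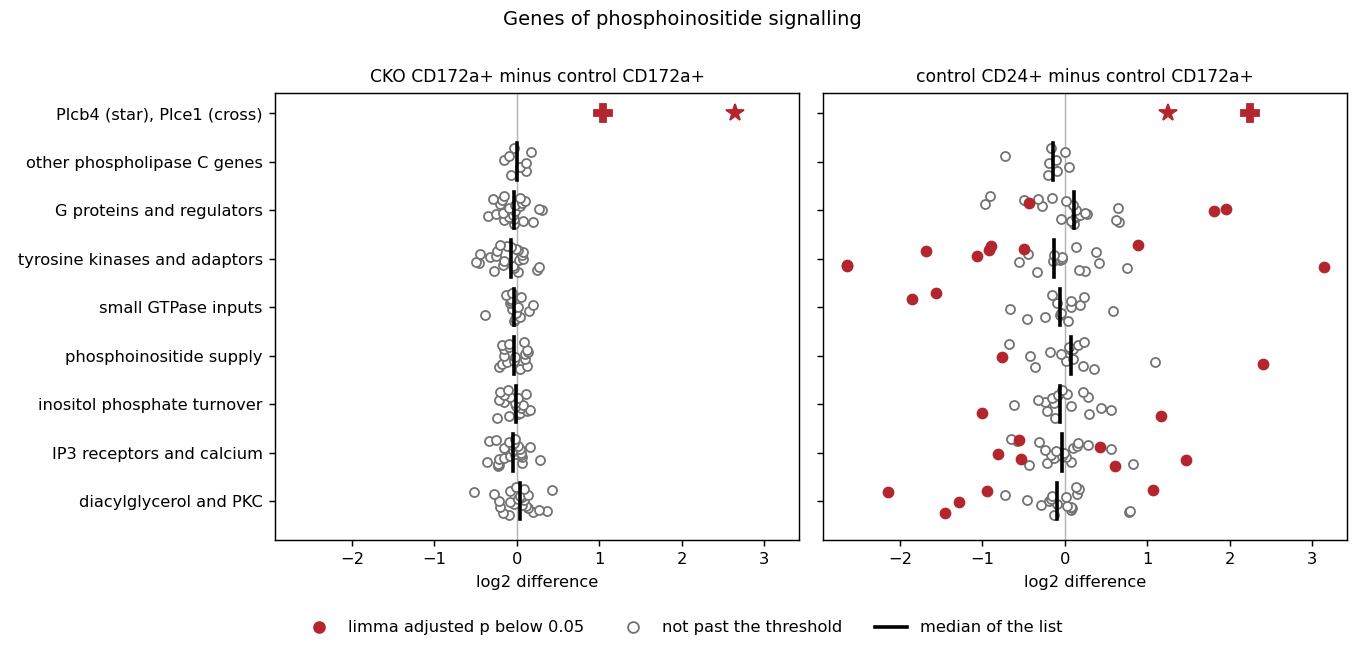
Log2 differences (x axis) of the genes of each pathway list (y axis), with Plcb4 as a star and Plce1 as a cross in the top row, for the comparisons of CKO and of control CD24+ with control CD172a+ cDCs; each point is a gene, black bars are list medians, and filled points passed an adjusted p of 0.05 in limma. For CKO cells the list genes lie between -0.52 and 0.43 and none is filled, while for CD24+ cells they run from -2.64 to 3.14.

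Genes whose levels over the 11 arrays were most like those of the 2 genes were ranked by Pearson r, as a description over arrays that share groups and array sets. Predicted genes, clone names, small RNAs and olfactory and vomeronasal receptor genes were left out. For Plcb4 they were Ppp1r17 (0.906), Gga3 (0.895), Gli2 (0.876), Gata5 (0.871) and Acp7 (0.844). Apart from Gga3 (7.84 to 8.15), their group means lay between 2.39 and 4.96, under the median gene at 5.53. The CKO differences of all these genes, Gga3 included, were only 0.19 to 0.41 and did not pass, so none moved on the scale of Plcb4. For Plce1 they were Endod1 (0.966), Tram2 (0.961), Lsr (0.961), Mpeg1 (0.955) and Ttc39a (0.943). All were higher in CD24+ than in control CD172a+ cDCs (0.73 to 2.90), a direction that ranking by likeness to Plce1 favours. Their CKO differences ran from 0.30 to 1.01 and did not pass. Plcb4 and Plce1 themselves had an r of 0.483.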

How the data were processed

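Affymetrix gene arrays of 11 samples in 3 groups were analysed from the values the authors deposited, which are log2 expression levels per probe set after RMA, per the submitters' processing notes. No source used here names the genome build behind the array annotation. Precision is set by how many arrays a group has. Of 30177 probe sets, 21789 carried 1 gene symbol, 1621 several and 6767 none. The probe set with the highest mean stood for each of 19938 genes.

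Differences between groups were fitted over all arrays with limma 3.58.1 in R 4.3.3 (lmFit, eBayes, 8 residual degrees of freedom), two-sided, with Benjamini-Hochberg adjustment over all genes and a threshold of 0.05. The fit was tested on simulated data with independent noise for each gene and array. That simulation held no array sets, so it says nothing about their effect on the calls. The members and lists were chosen with earlier results of these data known. All 10 phospholipase C genes are named, with up to 3 genes per pathway list and comparison by smallest p. The 5 genes nearest to Plcb4 and to Plce1, Zeb2, and the marker genes called in CKO against control CD172a+ cDCs are named too. B cell, monocyte and plasmacytoid DC markers that did not pass there were named after their values were seen. So were the cDC markers that did not pass in CD24+ against control CD172a+ cDCs.

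Array sets came from the leading component of deviations from group means. Same-numbered CKO and control CD172a+ arrays had deviations correlated at 0.442 to 0.68, and other numbers of the same array set at 0.496 to 0.699. The replicate block changed no call of the 10 genes in that comparison, but moved the count over all genes from 10 to 26 on the CD172a+ arrays. Alternatives were array-set and replicate blocks, fits within an array set or on the compared groups alone, other scaling, filter, probe set and variance choices, and leaving out each array.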

Additional observations from a re-analysis of the deposited data

Results flagged for a closer look

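Plcb3 read 5.58 in CKO CD172a+ replicate 3, while the other 3 arrays of that group each read 5.80. The gap to the nearest array was the whole range of the group after rounding, above Dixon's critical value for 4 arrays. It was 1 of 20 checks of a gene in a group of 4 arrays, and chance sets apart about 1 in 20 groups.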

How the results depend on the processing

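No called difference of the 10 genes changed sign under any alternative run, and of 634 differences under alternatives 14 lost a call, 9 gained one and 26 with no call changed sign. In CKO against control CD172a+ cDCs, 2 of the 10 genes passed, against 0 within the first array set, 1 within the second, 1 on the arrays of the 2 groups alone, and 1 to 2 when 1 array was left out; Plce1 is the gene lost in each case, and Plcb4 too within the first set. Over all genes 10 passed, against 29 when array set was a block, 0 within the first set, 26 with the replicate block on CD172a+ arrays and 5 on the arrays of the 2 groups. Fits within a set or on fewer arrays have fewer samples by construction, and the first set holds 1 CD24+ array, assumed to vary like the other groups; for the blocks the cause was not tested. In control CD24+ against control CD172a+ cDCs, 2 of the 10 genes passed, against 4 when array set was a block and 5 within the first set, with its lone CD24+ array; over all genes 1278 passed, against 3080 with that block. In CKO CD172a+ against control CD24+ cDCs, 2 passed, against 4 within the first set, with the same lone array; over all genes 1429 passed, against 3641 with that block. The replicate block on all arrays changed no call of the 10 genes. It joins CD24+ replicate 2 with the CD172a+ arrays of that number, which lie in the other array set. Their deviations were correlated at -0.445 (control) and -0.361 (CKO), so that block is no check of a pairing with CD24+ arrays.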
